A study of Homo sapiens with 20 samples.

Results

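NEAT1 and MALAT1 are neighbouring nuclear long non-coding RNA genes, and NONO, SFPQ, PSPC1, TARDBP and RBM14 encode proteins found in paraspeckles. These 7 genes, of 57087 genes with a matched transcript, were followed in 14 libraries of human embryonic kidney cells. The libraries came from wild type cells and from cells in which Dicer, Ago2 or Drosha was targeted by short hairpin RNA. NEAT1 and the genes around it were selected on an increase of NEAT1 in chromatin RNA of cells labelled shDrosha, so the comparison of shDrosha with wild type (wt) chromatin RNA is given here as a description, with no test.

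Paraspeckles are nuclear bodies built on the long form of NEAT1, which acts as a scaffold for RNA-binding proteins. NONO, SFPQ and PSPC1 are the paralogous DBHS proteins at their core, RBM14 is needed to assemble them, and TARDBP (TDP-43) binds NEAT1 and also processes many other transcripts. MALAT1 is transcribed from the neighbouring gene and accumulates in another body, the nuclear speckle, which is rich in splicing factors.

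The mRNA-seq experiment held 3 wt samples, labelled HEK293T, and 3 shDicer samples, labelled HEK293 2B. Both received 3 µg/ml doxycycline and were kept for 7 days. Chromatin-associated RNA sequencing (chrRNA-seq), which reads RNA still bound to chromatin, held 2 samples each of wt, shDicer, shAgo2 and shDrosha cells, all labelled HEK293. In chrRNA-seq the shDicer and shAgo2 hairpins were integrated and were induced by 72 h in 3 µg/ml doxycycline, whereas the shDrosha hairpin came from a transfected plasmid. The methods describe the inducible cells as recombinant HEK293T-REx lines and list wild type HEK293T cells apart from them. Each knockdown is therefore a line or transfection of its own. The wt cells are not named as the parent of the inducible lines, so knockdown and line cannot be told apart there. No scrambled hairpin is among these samples. Whether wt cells of chrRNA-seq received doxycycline or a transfection is not given in the sources used here. The labels call the mRNA-seq material polyA RNA, whereas the methods describe depletion of ribosomal RNA and a kit for total RNA. This bears on the mRNA-seq levels of MALAT1 and of the long form of NEAT1, which lack a conventional poly(A) tail. How much of the NEAT1 signal came from the long form is not known.

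Library totals were 10216430 to 17215978 estimated counts in mRNA-seq and 17484067 to 21553760 in chrRNA-seq. The targeted genes served as a check on the labels. In mRNA-seq, DICER1 lay at 232 to 257 CPM (counts relative to the library total, with TMM factors) in wt and at 80.6 to 94.4 CPM in shDicer samples, a fall (log2 fold change −1.49 ± 0.08 SE, edgeR adjusted p = 1.28e-07). In chrRNA-seq, AGO2 fell in shAgo2 samples (−0.62 ± 0.08, adjusted p = 9.29e-05), whereas DICER1 in shDicer samples (−0.18 ± 0.09, adjusted p = 0.166) and DROSHA in the samples labelled shDrosha (0.07 ± 0.08, adjusted p = 0.697) did not pass the threshold. DROSHA was at 148 and 166 CPM in the samples labelled shDrosha and at 146 and 153 CPM in wt. These are levels of RNA bound to chromatin, so they do not show whether the mature transcript or the protein was lowered. For that the paper gives qRT-PCR of steady-state transcripts of the targeted genes in the chrRNA-seq samples. It also describes western blots as showing knockdown of each protein. Other differences between the lines ran alongside. HBB, an erythroid marker, had 115 to 199 counts in mRNA-seq of shDicer cells and 7 to 24 counts in chrRNA-seq of shDicer and shAgo2 cells, with 0 counts in all samples labelled wt or shDrosha. The 7 HEK293 markers together reached 622 to 726 CPM in wt and 1044 to 1459 CPM in shDicer mRNA-seq, and 612 to 658, 449 to 582, 458 to 502 and 379 to 456 CPM in wt, shDicer, shAgo2 and shDrosha chrRNA-seq. These sums hold genes that moved apart. In mRNA-seq NEFL averaged 16.6 CPM in wt and 454 CPM in shDicer, NEFM 6.27 and 0.414 CPM, KRT8 8.85 and 25.4 CPM and KRT18 29.3 and 103 CPM. In chrRNA-seq all 7 passed an edgeR adjusted p under 0.005 in shDicer (log2 fold changes of −3.28 to 3.73), where 21.6% of all genes did. In shAgo2 5 of 7 passed (−4.71 to 2.91), where 24.5% of all genes did. The 7 markers of blood, liver and erythroid cells together stayed between 0.621 and 13.0 CPM in all 14 samples. Their part in the results below was not tested. In bulk samples like these, fewer cells of a kind and less RNA per cell cannot be told apart.

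The NEAT1 gene (ENSG00000245532) lies on chromosome 11, chr11:65422774-65445540 on the plus strand of GRCh38. The MALAT1 gene (ENSG00000251562, chr11:65497640-65508073, plus strand) begins 52.1 kb beyond its end. MALAT1 and the long form of NEAT1 lack a conventional poly(A) tail. RNase P cuts ahead of a tRNA-like structure, and RNase Z (ELAC2) trims that small RNA. A stretch rich in A next to the cut folds into a protective triple helix. These ends are printed because they are the feature that the pair shares and that sets them apart from polyadenylated RNA. In the stretches of 60 bases ahead of the cut, capitals mark the longest run of A.
NEAT1, chr11:65445481-65445540: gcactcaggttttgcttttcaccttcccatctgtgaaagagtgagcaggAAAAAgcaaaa
MALAT1, chr11:65506057-65506116: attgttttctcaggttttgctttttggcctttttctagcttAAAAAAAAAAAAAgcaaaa
NEAT1 tRNA-like RNA, ENSG00000275948, chr11:65445541-65445598: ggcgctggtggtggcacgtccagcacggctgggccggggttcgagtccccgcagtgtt
MALAT1 tRNA-like RNA, ENSG00000274072, chr11:65506117-65506173: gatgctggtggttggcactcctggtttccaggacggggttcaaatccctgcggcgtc
Aligned over 57 positions, the tRNA-like sequences were identical at 36 (63.2%), and the stretches ahead of the cut ended in the same 11 bases. The tRNA-like RNA of NEAT1 is a separate entry of the index and received 0 and 1 counts in wt, 7 and 5 in shDicer, 12 and 9 in shAgo2 and 2 and 0 in shDrosha chrRNA-seq, too few for a comparison. That of MALAT1 received 0 counts in all 14 samples. MIR612, a microRNA gene inside NEAT1 at chr11:65444458-65444557, also had 0 counts on its own entry in every sample. At 3 counts, the smallest amount considered visible, the depth allowed up to 0.311 CPM in mRNA-seq and 0.183 CPM in chrRNA-seq. Counting error alone is covered by that limit.

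NEAT1 was more abundant in every shDicer sample than in every wt sample in mRNA-seq, and 9.18- to 10.4-fold above wt in chromatin RNA of shDicer and shAgo2 cells. In mRNA-seq, a comparison independent of the samples that chose the genes, NEAT1 lay at 11.0, 10.9 and 15.3 CPM in wt and at 39.7, 44.8 and 52.2 CPM in shDicer samples. The groups did not overlap, and the rise was 3.70-fold (log2 fold change 1.89 ± 0.15 SE, edgeR adjusted p = 2.56e-06). These levels rest on 122 to 149 counts per wt sample and 507 to 875 per shDicer sample. By log2 fold change it was number 765 from the top of 15090 genes tested. In this comparison 29.8% of all genes passed the threshold of an adjusted p-value under 0.001, 15.6% higher and 14.2% lower.

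In chrRNA-seq, NEAT1 lay at 700 and 776 CPM in wt, 7225 and 8182 CPM in shDicer, 7159 and 6382 CPM in shAgo2, and 2291 and 1794 CPM in samples labelled shDrosha. Every knockdown sample was above both wt samples, and the samples labelled shDrosha lay between wt and the other knockdowns. The shDicer and shAgo2 comparisons use the same wt samples as the shDrosha comparison that chose NEAT1. Against wt, NEAT1 rose 10.4-fold in shDicer (log2 fold change 3.38 ± 0.14, edgeR adjusted p = 6.5e-09) and 9.18-fold in shAgo2 samples (3.20 ± 0.14, adjusted p = 8.5e-09). It was number 370 and number 437 from the top of 32874 genes. In these comparisons 21.6% of all genes passed the threshold of 0.005 for shDicer (11.0% higher, 10.5% lower) and 24.5% for shAgo2 (12.5% higher, 12.1% lower). In the samples labelled shDrosha, NEAT1 was 2.77-fold above wt as a description (1.47 ± 0.13), number 292 from the top. DROSHA RNA on chromatin was not lower in them, and 3.38% of genes passed the threshold of 0.05 in that comparison.

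Each shDicer sample was slightly above each shAgo2 sample for NEAT1 in chrRNA-seq. That difference, which uses neither group of the selecting comparison, did not pass the test (0.19 ± 0.12, edgeR adjusted p = 0.417). The order of NEAT1 levels in chromatin RNA was therefore wt, shDrosha, and then shAgo2 and shDicer, whose neighbouring positions were not separated beyond their spread.

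**Figure D1:**
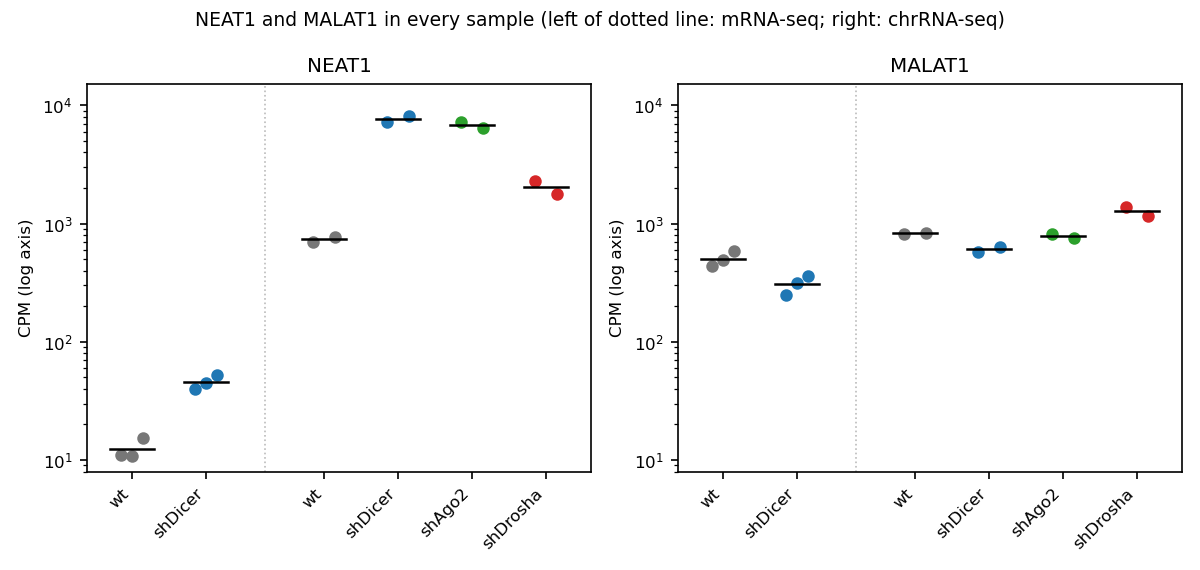
Level of NEAT1 (left panel) and MALAT1 (right panel) in CPM on a log axis, 1 point per sample and a bar at the group mean, with 3 samples per group in mRNA-seq and 2 in chrRNA-seq. NEAT1 moves from 700 and 776 CPM in wt chromatin RNA to between 6382 and 8182 CPM in shDicer and shAgo2, while MALAT1 stays between 579 and 1388 CPM across chrRNA-seq.

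Nearly all NEAT1 reads were assigned to one entry, NEAT1-202, the unspliced transcript of 22743 bases at chr11:65422798-65445540. It carried 98.2 to 100% of NEAT1 counts in every sample, and none of the other 4 entries reached 5%. Those 4 entries are spliced models, and between 99.3 and 100% of their present sequence lies inside NEAT1-202. The short unspliced NEAT1 isoform has no entry of its own in the counts used here, so reads from the short and the long form cannot be told apart. At transcript level NEAT1-202 rose in chrRNA-seq in shDicer (3.42 ± 0.14, edgeR adjusted p = 0.000226) and shAgo2 (3.24 ± 0.14, adjusted p = 0.000224), in fits where 1.97% and 2.68% of 114057 transcripts passed. The calls were lost without wt replicate 1, where the values were 3.34 and 3.16. In mRNA-seq, NEAT1-202 stood at 2.02 ± 0.18 (adjusted p = 0.00212), outside the threshold of 0.001 that 0.525% of 45738 transcripts passed. Its log2 fold change between shDicer and shAgo2 was 0.18, in a fit where 0.0158% of transcripts passed.

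MALAT1 fell in shDicer cells, where NEAT1 rose. In mRNA-seq it lay at 437, 491 and 588 CPM in wt and at 250, 313 and 358 CPM in shDicer samples. The shDicer samples were all lower, and the fall was to 0.608 of the wt level (log2 fold change −0.72 ± 0.13, edgeR adjusted p = 0.000909). The value was close to the threshold of 0.001, and the call was kept without shDicer replicate 3 but lost without any single one of the other 5 samples (−0.59 to −0.80).

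In chrRNA-seq, MALAT1 lay at 815 and 836 CPM in wt, 579 and 638 CPM in shDicer, 816 and 755 CPM in shAgo2, and 1388 and 1165 CPM in samples labelled shDrosha. The shDicer samples were the lowest and the samples labelled shDrosha the highest, while shAgo2 overlapped wt. MALAT1 fell in shDicer (−0.44 ± 0.10, edgeR adjusted p = 0.00392). This call was lost without any single wt, shDicer or shAgo2 sample (−0.37 to −0.51). The shAgo2 value did not pass (−0.07 ± 0.10, adjusted p = 0.596). In samples labelled shDrosha MALAT1 was 1.55-fold above wt as a description (0.63 ± 0.10). Directly compared, shDicer was below shAgo2 by a difference that did not pass the threshold (−0.37 ± 0.10, adjusted p = 0.0352).

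The levels of the neighbouring RNAs can be set side by side per length, in the deposited TPM (a relative level that divides each count by transcript length). In wt chromatin RNA, NEAT1 was at 18.0 ± 0.65 TPM (SD, n = 2) and MALAT1 at 257 ± 3.1 TPM. In shDicer samples both were at 187 TPM (SD 3.7 for NEAT1 and 8.2 for MALAT1). In shAgo2 samples NEAT1 was at 169 ± 19 TPM and MALAT1 at 247 ± 21 TPM, and in samples labelled shDrosha they were at 47.1 ± 1.8 and 379 ± 7.8 TPM. In mRNA-seq the gap stayed wide in both groups, with NEAT1 at 0.396 ± 0.158 TPM in wt and 1.27 ± 0.27 TPM in shDicer (n = 3), against 173 ± 27 and 84.0 ± 29.6 TPM for MALAT1. These are sums over the entries of a gene, and most of the MALAT1 sum came from short entries inside the unspliced RNA. Of the unspliced entries alone, NEAT1-202 was at 17.6 and 18.4 TPM in wt, 184 and 189 TPM in shDicer, 182 and 155 TPM in shAgo2 and 48.4 and 45.7 TPM in shDrosha chrRNA-seq. MALAT1-202 was at 42.9 and 41.2, 30.3 and 31.2, 43.0 and 38.3, and 60.8 and 62.3 TPM in the same order. On this scale NEAT1-202 was below MALAT1-202 in wt and above it in every shDicer and shAgo2 sample. The short NEAT1 form has no entry of its own, so the level of NEAT1-202 per length depends on an unknown mix of forms. MALAT1-202 in turn holds only a part of the MALAT1 counts. TPM of mRNA-seq and of chrRNA-seq were scaled separately, so levels are compared within each experiment only.

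MALAT1 counts were spread over 16 entries, of which 5 reached 5% of the gene in some sample. MALAT1-202, the unspliced RNA (8708 bases in the index), carried 69.3 to 80.0%. MALAT1-201 carried 2.44 to 4.20% in shDicer and 6.17 to 6.46% in wt mRNA-seq, its log2 fold change being −1.52 ± 0.33 (adjusted p = 0.0294), and MALAT1-205, MALAT1-212 and MALAT1-209 had values between −0.71 and −0.69. The corresponding value of MALAT1-202 was −0.49 ± 0.15. In chrRNA-seq of shDicer cells the same 5 entries lay between −0.60 and −0.18. None of the 7 tested MALAT1 entries passed a threshold with edgeR. At an unadjusted p under 0.05, 5 would have been called in mRNA-seq, 3 in shDicer and 0 in shAgo2 chrRNA-seq, and 3 between shDicer and shAgo2. The share of all transcripts under that limit was not counted. Of all genes, 62%, 46%, 48.6% and 23.6% lay under it in the same order. Shares of genes are not shares of transcripts, so these counts cannot show whether the MALAT1 entries stand apart. With DESeq2, MALAT1-201 alone of the 5 passed in shDicer against wt, in both experiments, and in shDicer against shAgo2. All MALAT1 entries lie inside MALAT1-202, so the division of reads among them is an estimate.

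The genes nearest to NEAT1 and MALAT1 gave a view of the surrounding chromosome. They were the 5 genes tested on each side and the one between, a lncRNA without a symbol, from 88.9 kb before to 150 kb after the start of NEAT1. In chrRNA-seq of shDicer cells 1 of the 11 rose, LTBP3 (0.83 ± 0.10), and 4 fell, where 11.0% of all genes were higher and 10.5% lower. The median was −0.04 with a range of −0.80 to 0.83. In shAgo2 cells 0 rose and 5 fell, against 12.5% and 12.1% of all genes, with a median of −0.29 and a range of −1.20 to 0.70. The gene between NEAT1 and MALAT1 lay at 0.01 in both. In samples labelled shDrosha the 11 values ran from −0.47 to 0.11. Against wt, NEAT1 was above the range of its neighbours in chromatin RNA of shDicer and shAgo2. Between shDicer and shAgo2 it lay within their range of −0.49 to 0.50. In mRNA-seq NEAT1 was within the range of the 10 neighbours tested (−0.95 to 1.93), where LTBP3 rose (1.93 ± 0.34) and DPF2 and FRMD8 fell (−0.53 ± 0.10 and −0.95 ± 0.14). LTBP3 rests on 4.2 to 15 counts per wt sample there.

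**Figure D2:**
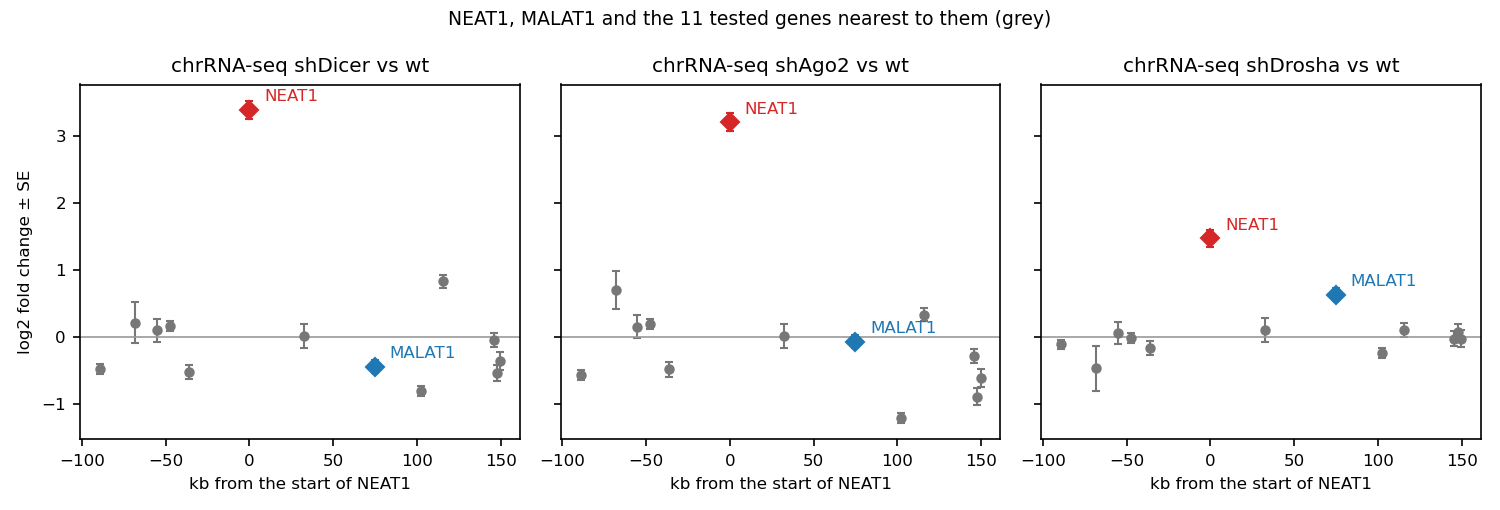
Log2 fold change against wt in chrRNA-seq (vertical axis, bars ± SE) of NEAT1, MALAT1 and the 11 nearest tested genes, against distance from the start of NEAT1 in kb, for shDicer, shAgo2 and shDrosha. NEAT1 stands at 3.38 in shDicer and 3.20 in shAgo2, above every neighbour. Its 1.47 in shDrosha is a description, because that comparison chose NEAT1 for its rise. The neighbours lie between −1.20 and 0.83.

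The core DBHS genes showed lower values or no detectable change. NONO (ENSG00000147140, chrX:71254814-71301522, plus strand) lay at 557, 511 and 530 CPM in wt and 498, 519 and 554 CPM in shDicer mRNA-seq. The groups overlapped (−0.03 ± 0.07, edgeR adjusted p = 0.779). In chrRNA-seq it lay at 510 and 529 CPM in wt, 372 and 449 CPM in shDicer, 343 and 376 CPM in shAgo2, and 361 and 283 CPM in samples labelled shDrosha. Every knockdown sample was below both wt samples. NONO fell in shAgo2 (−0.53 ± 0.12, adjusted p = 0.00366), and its value in shDicer did not pass (−0.34 ± 0.12, adjusted p = 0.0418). The shAgo2 call was lost without either wt or either shAgo2 sample (−0.47 to −0.60). In shDrosha NONO was at −0.69 ± 0.12 as a description, and at −0.34 when counts were scaled from TPM by transcript length. NONO shares 11.6% of its 31-base words with other genes, and 8.6% of all its words are shared with ENSG00000260290, so its counts can be split.

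SFPQ (ENSG00000116560, chr1:35176378-35193446, minus strand) fell in mRNA-seq, from 679, 684 and 693 CPM in wt to 421, 446 and 498 CPM in shDicer samples. The groups lay far apart relative to their spread (−0.59 ± 0.08, edgeR adjusted p = 6.19e-05). In chrRNA-seq it lay at 642 and 693 CPM in wt, 507 and 537 CPM in shDicer, 471 and 500 CPM in shAgo2, and 601 and 496 CPM in samples labelled shDrosha, again with every knockdown sample below wt. SFPQ fell in shAgo2 (−0.46 ± 0.10, adjusted p = 0.00266), a call lost without either wt or either shAgo2 sample (−0.41 to −0.52). In shDicer it did not pass (−0.35 ± 0.10, adjusted p = 0.0134). The shDrosha value was −0.28 ± 0.10 as a description, and −0.11 when counts were scaled from TPM.

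PSPC1 (ENSG00000121390, chr13:19674752-19783019, minus strand), the third DBHS gene, was the least abundant of them per length. It was at 16.6 ± 1.7 TPM in wt mRNA-seq (n = 3), against 129 ± 6.4 TPM for NONO and 186 ± 9.7 TPM for SFPQ. In mRNA-seq it ranged from 56.9 to 68.0 CPM in wt and from 59.7 to 65.5 CPM in shDicer samples. In chrRNA-seq it lay at 110 and 110 CPM in wt, 105 and 106 CPM in shDicer, 109 and 119 CPM in shAgo2, and 132 and 116 CPM in samples labelled shDrosha. No tested difference from wt passed: −0.03 ± 0.09 in mRNA-seq, −0.06 ± 0.08 in chrRNA-seq of shDicer and 0.05 ± 0.08 of shAgo2, with edgeR adjusted p = 0.813, 0.618 and 0.688. PSPC1 shares 8.21% of its 31-base words with the pseudogene PSPC1P1.

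RBM14 (ENSG00000239306, chr11:66616626-66629934, plus strand), which paraspeckle assembly requires, had the lowest log2 fold change of the 5 protein genes in chromatin RNA of shDicer and shAgo2. It lay at 322 and 295 CPM in wt, 199 and 172 CPM in shDicer, 174 and 172 CPM in shAgo2, and 249 and 265 CPM in samples labelled shDrosha. All knockdown samples were lower than both wt samples, and the samples labelled shDrosha lay between. RBM14 fell in shDicer (−0.73 ± 0.09, edgeR adjusted p = 4.92e-05) and in shAgo2 (−0.83 ± 0.09, adjusted p = 1.49e-05). Its shDrosha value was −0.26 ± 0.09 as a description. In mRNA-seq it was at 36.4, 28.3 and 39.3 CPM in wt and 27.5, 21.9 and 24.1 CPM in shDicer samples, lower in all 3 but outside the threshold (−0.50 ± 0.14, adjusted p = 0.0098). RBM14 shares 6.15% of its 31-base words with the readthrough gene RBM14-RBM4, and adding the counts of that gene changed no call.

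TARDBP (ENSG00000120948, chr1:11012344-11030528, plus strand) went the other way in chromatin RNA. It lay at 80.2 and 84.4 CPM in wt, 119 and 115 CPM in shDicer, 119 and 119 CPM in shAgo2, and 93.4 and 80.0 CPM in samples labelled shDrosha. The shDicer and shAgo2 samples were all above wt, and shDrosha overlapped it. TARDBP rose in shDicer (0.51 ± 0.08, edgeR adjusted p = 0.000543) and in shAgo2 (0.53 ± 0.08, adjusted p = 0.000332). The shDicer call was lost without either wt sample (0.47 and 0.54), and the shAgo2 call without wt replicate 1 or either shAgo2 sample (0.49 to 0.54). In shDrosha the value was 0.08 ± 0.09 as a description. In mRNA-seq it was at 132, 119 and 114 CPM in wt and 93.2, 116 and 111 CPM in shDicer samples, with overlapping groups (−0.19 ± 0.10, adjusted p = 0.12). TARDBP regulates its own mRNA through its terminal exon, so its entries were followed. TARDBP-201, of 5367 bases, took 41.8 to 52.7% of the gene's counts in chrRNA-seq and had values of 0.75 ± 0.12 in shDicer and 0.81 ± 0.12 in shAgo2 (adjusted p = 0.0135 and 0.00885), outside the threshold at transcript level. TARDBP-236, of 2269 bases, had 0.22 ± 0.17 and 0.21 ± 0.17.

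**Figure D3:**
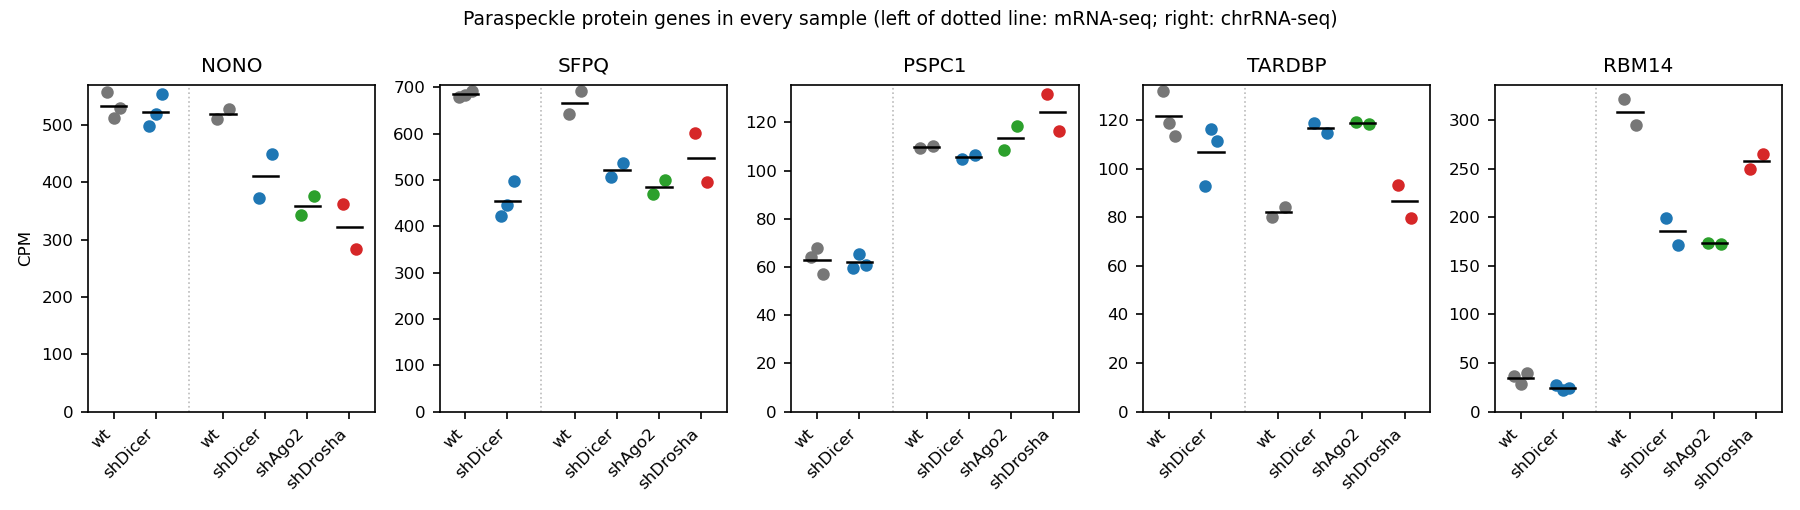
Level of the 5 protein genes in CPM (vertical axes from 0, a panel per gene), 1 point per sample with a bar at the group mean. RBM14 falls from 295 and 322 CPM in wt to between 172 and 199 CPM in shDicer and shAgo2 chromatin RNA, TARDBP lies between 115 and 119 CPM there against 80.2 and 84.4 CPM in wt, and PSPC1 stays between 105 and 132 CPM in all chrRNA-seq samples.

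Counted together, 3 of the 7 genes passed in mRNA-seq (1 higher, 2 lower), where 29.8% of all genes did. In chrRNA-seq 4 of 7 passed in shDicer (2 higher, 2 lower) against 21.6% of all genes, and 5 of 7 in shAgo2 (2 higher, 3 lower) against 24.5%. The median log2 fold change of the 7 was −0.19, −0.34 and −0.07 in these comparisons, and that of all genes tested was 0.01, 0.01 and 0.003. Between shDicer and shAgo2, 0 of 7 passed with edgeR and 0 with DESeq2, where 2.71% of all genes passed. At an unadjusted p under 0.05, 1 of the 7 (MALAT1) would have been called there, as 23.6% of all genes would. The 7 values between these knockdowns ran from −0.37 to 0.19, with standard errors of 0.08 to 0.12.

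**Figure D4:**
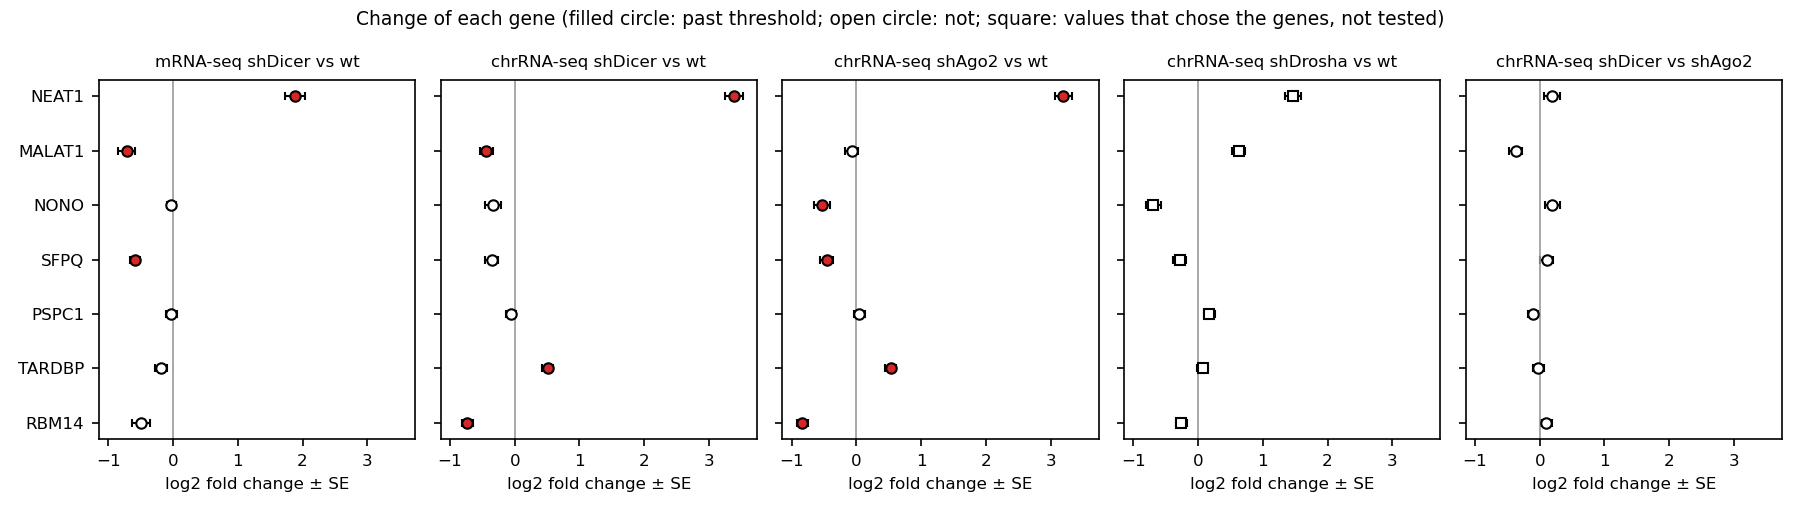
Log2 fold change (horizontal axis, bars ± SE) of the 7 genes in the 5 comparisons; filled circles passed the threshold of that comparison, open circles did not, and squares are the shDrosha values that chose the genes. NEAT1 lies to the right of the other genes in the tested comparisons with wt, and its place among the squares follows from the selection. All 7 lie between −0.37 and 0.19 in shDicer against shAgo2.

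Genes for other proteins reported in paraspeckles fell more often than they rose. Of 27 genes tested in mRNA-seq, 0 rose and 11 fell, with a median log2 fold change of −0.34, against 15.6% higher and 14.2% lower among all genes. The deepest falls were in NUDT21 (−1.02 ± 0.08), a cleavage factor subunit, and RBM4B (−0.93 ± 0.11), an RNA-binding protein, and the shallowest among those that passed were in EWSR1 (−0.52 ± 0.07) and HNRNPH1 (−0.65 ± 0.07). In chrRNA-seq 28 were tested. In shDicer 2 rose and 10 fell (median −0.20), where 11.0% of all genes were higher and 10.5% lower, and in shAgo2 3 rose and 12 fell (median −0.28), where 12.5% and 12.1% were. SRSF10 (0.64 ± 0.09 and 0.71 ± 0.09) and HNRNPR (0.55 ± 0.08 and 0.71 ± 0.08) had the highest values in both, and SS18L1 (−0.91 ± 0.11 and −1.16 ± 0.11) and CPSF7 (−0.86 ± 0.08 and −0.99 ± 0.08), partner of NUDT21 in cleavage factor I, the lowest. The median over the same genes in samples labelled shDrosha was −0.13.

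Genes for proteins of nuclear speckles, where MALAT1 resides, were mostly lower in mRNA-seq. Of 12 tested, 0 rose and 8 fell there (median −0.52), where 15.6% of all genes rose and 14.2% fell, led by SRRM2 (−0.82 ± 0.13) and SRSF1 (−0.68 ± 0.09), with SRSF7 (−0.43 ± 0.07) and PNN (−0.48 ± 0.09) the smallest falls that passed. In chrRNA-seq 1 rose and 3 fell in shDicer (median −0.26), where 21.6% of all genes passed, and 2 rose and 3 fell in shAgo2 (median −0.14), where 24.5% did. SRRM1, a splicing coactivator, rose in both (0.49 ± 0.08 and 0.58 ± 0.08), and U2AF2, which recognises the polypyrimidine tract, fell in both (−0.77 ± 0.09 and −1.01 ± 0.09). SRRM2 (−0.62 ± 0.09) and SON (−0.51 ± 0.09) also fell in shDicer, and in shAgo2 SRSF7 rose (0.60 ± 0.12) and SON fell (−0.84 ± 0.09). The shDrosha median was 0.04.

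Genes of RNA 3′ end processing were followed as a list of 15: ELAC2, RNase P subunits, METTL16, which binds the MALAT1 triple helix, and Integrator subunits. Of these, ELAC2 and RNase P make the ends printed above, and Integrator has no part in the cut described there. In mRNA-seq 2 rose and 5 fell (median −0.18), where 29.8% of all genes passed. In chrRNA-seq 0 rose and 4 fell in shDicer (median −0.29), a share close to the 21.6% of all genes, and 2 rose and 5 fell in shAgo2 (median −0.32), where 24.5% of all genes passed. RPP25, an RNase P subunit, had the deepest fall in shDicer cells in mRNA-seq (−1.99 ± 0.21) and in chrRNA-seq (−1.10 ± 0.13). POP1, the largest subunit, was lowest in shAgo2 (−0.82 ± 0.13) and also fell in shDicer (−0.63 ± 0.13), and RPP14 fell in mRNA-seq (−0.70 ± 0.08). INTS1 fell in both (−0.65 ± 0.07 in shAgo2 and −0.47 ± 0.07 in shDicer), as did METTL16 (−0.47 ± 0.09 and −0.48 ± 0.09). INTS11, the Integrator endonuclease, rose in mRNA-seq (1.03 ± 0.16) and in shAgo2 (0.47 ± 0.10). RPP21 had the highest values (3.96 ± 0.30 in mRNA-seq and 3.47 ± 0.56 in shAgo2), and it lies in the HLA region, whose alternative copies can split reads, so its level is uncertain. In wt it was at only 0.324 to 0.445 CPM in mRNA-seq and 0.253 to 0.296 CPM in chrRNA-seq, close to the smallest amount considered visible. The shDrosha median was −0.11.

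Of 9 other long non-coding RNAs tested in mRNA-seq, 0 rose and 6 fell (median −0.85), against 15.6% higher and 14.2% lower among all genes. FIRRE, a nuclear RNA of the X chromosome, fell most (−3.53 ± 0.12), followed by SNHG1 (−1.39 ± 0.07), a snoRNA host, and NORAD (−0.68 ± 0.08) and TUG1 (−0.85 ± 0.11) fell least of those that passed. In chrRNA-seq of 10 tested, 1 rose and 4 fell in shDicer (median −0.51), where 21.6% of all genes passed. In shAgo2 1 rose and 2 fell (median −0.13), a share near the 24.5% of all genes. PVT1 was the one that rose in both (0.43 ± 0.08 and 0.41 ± 0.08). FIRRE (−1.10 ± 0.11), MIAT (−0.59 ± 0.09) and TUG1 (−0.55 ± 0.08) fell in shDicer, and KCNQ1OT1 (−0.64 ± 0.08) and MIAT (−0.53 ± 0.09) in shAgo2. The shDrosha median was 0.13. Of the 65 genes of these 4 lists, 1 passed between shDicer and shAgo2, FIRRE (−0.86 ± 0.11), where 2.71% of all genes passed. At an unadjusted p under 0.05, 19 of the 65 would have been called, where 23.6% of all genes would.

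**Figure D5:**
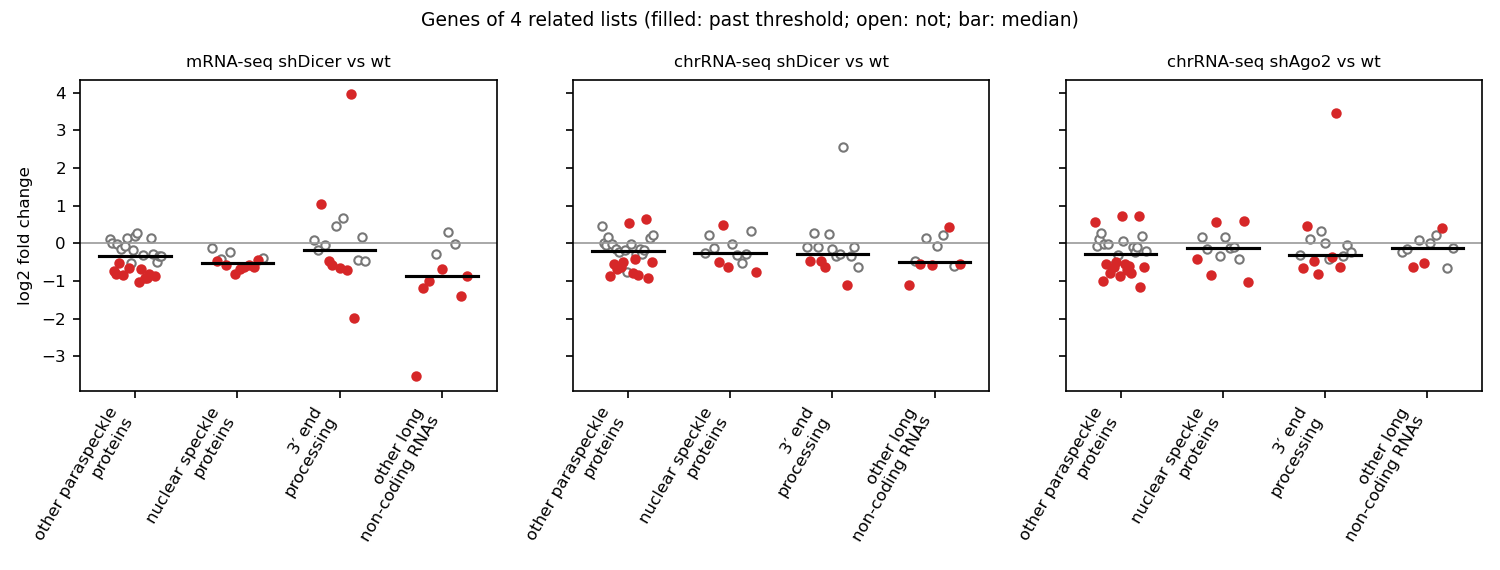
Log2 fold change (vertical axis) of each tested gene of 4 lists in the 3 tested comparisons with wt; filled points passed the threshold, open points did not, and bars are medians. The medians lie between −0.85 and −0.13, and RPP21 stands apart at 3.96 in mRNA-seq and 3.47 in shAgo2 chromatin RNA. The wt level of RPP21 was close to the smallest amount considered visible.

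Across the 8 chrRNA-seq samples, the genes whose log2 CPM followed NEAT1 most closely were SAMD4A (Pearson r = 0.994), TRABD2A (0.994), MCOLN3 (0.993), BMPR1B (0.993) and SLC39A8 (0.993), out of 15596 genes whose log2 CPM averaged 3 or more. Like NEAT1, all had their lowest group mean in wt and the next in samples labelled shDrosha, but their changes were smaller. SAMD4A was at 43.0 CPM in wt, 87.5 CPM in shDicer, 89.4 CPM in shAgo2 and 58.1 CPM in samples labelled shDrosha. BMPR1B was at 9.92, 26.0, 23.1 and 14.1 CPM. Those most like MALAT1 were CEP55 (0.989), TEAD1 (0.989), TRIQK (0.988), PTBP2 (0.986) and UBE2K (0.986). PTBP2 was at 122, 96.2, 115 and 168 CPM in the same order of groups, highest in shDrosha and lowest in shDicer as MALAT1 was. These r values describe 8 samples in 4 groups of shared libraries, were picked as the highest of many, and carry no p-value.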

How the data were processed

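The authors ran kallisto on each library against human cDNA and non-coding RNA of Ensembl release 89, with a strand setting, and deposited an estimated count and a TPM per transcript. The deposited estimated counts (expected counts) are not normalized, and the deposited TPM values are divided by effective length and scaled to a common sum by the authors. Transcripts were matched by identifier to GENCODE release 44 on GRCh38 (193697 of 217082, 89.2%, carrying 93.4 to 94.8% of counts), and counts were summed per gene and rounded. edgeR 4.0.16 in R 4.3.3 was used with filterByExpr, TMM factors (0.968 to 1.05) and the quasi-likelihood test, in 1 fit per experiment with group as the term (15090 and 32874 genes tested). P-values were adjusted by Benjamini-Hochberg over all genes, and all adjusted p-values are from edgeR. Thresholds were those of the study, 0.001 for mRNA-seq, 0.005 for shDicer and shAgo2 chrRNA-seq and 0.05 for shDrosha. Scripts were tested on simulated data.

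The members and lists were chosen with earlier results of these data known. Named were the 7 genes, the 2 highest and 2 lowest values per list among those past the threshold, the neighbours and the most similar genes. No pair of samples of a group had the same counts (chi-square per degree of freedom 2.37 to 25.2, highest between shDicer replicates 1 and 3 of mRNA-seq). The labels do not say whether replicates came from separate cultures, so p-values measure the spread between these samples, which may be technical. DESeq2 1.42.0, other scalings, no filter, left-out samples and a replicate block were alternatives. Small RNA libraries were not analysed here.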

Additional observations from a re-analysis of the deposited data

How the results depend on the processing

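NEAT1 kept its direction and its side of the threshold under all alternatives. Its log2 fold change ranged from 1.78 to 2.05 over 13 alternatives in mRNA-seq and, over 16 alternatives in chrRNA-seq, from 3.29 to 3.47 in shDicer, from 3.11 to 3.28 in shAgo2 and from 0.09 to 0.27 between these knockdowns, where the adjusted p ranged from 0.199 to 0.805. RBM14 kept its calls in chrRNA-seq throughout (−0.84 to −0.63 in shDicer, −0.90 to −0.75 in shAgo2). SFPQ kept its mRNA-seq call under all 13 alternatives (−0.65 to −0.51). The other calls among the members lay nearer their thresholds. When TPM values were turned back into counts through transcript length, the members called went from 4 to 2 in shDicer and from 5 to 2 in shAgo2 chrRNA-seq. With transcripts kept that had no match in the newer annotation, 3 were called in shAgo2. With each sample left out in turn, 2 to 3 of the 7 genes were called in mRNA-seq, 2 to 5 in shDicer, 2 to 5 in shAgo2 and 0 to 0 between shDicer and shAgo2. With 1 sample left in a group, that sample is assumed to vary like the other groups. MALAT1 lost its mRNA-seq call in 8 of 13 alternatives, among them library size without TMM factors (−0.72) and counts scaled from TPM (−0.77), and its chrRNA-seq call in shDicer in 9 of 16. NONO and SFPQ lost their shAgo2 calls in 7 of 16 each, and TARDBP lost its calls with counts scaled from TPM (0.38 and 0.37). SFPQ gained a call in shDicer chrRNA-seq with DESeq2 and with no filter on low counts. NEAT1-202 gained one in mRNA-seq under the same alternatives. The cause was not tested. Samples with the same replicate number did not deviate together (mean r 0.064 in mRNA-seq and −0.074 to 0.028 for wt with each knockdown of chrRNA-seq), so the numbers do not pair the samples. With the replicate number as a block, 3 members were called in mRNA-seq, 3 in shDicer (MALAT1 lost, −0.44) and 3 in shAgo2 (NONO and SFPQ lost, −0.53 and −0.46), with NEAT1 at 1.89, 3.38 and 3.20. No called value changed sign. Among the alternative values of log2 fold changes, 25 had the opposite sign. All were of differences that had passed no threshold or were not tested, such as NONO in mRNA-seq (−0.06 to 0.03) and PSPC1 in shAgo2 (−0.02 to 0.11). Depth limits NEAT1 in wt mRNA-seq, at 122 to 149 counts, and the small RNAs at its end. With 2 samples per group in chrRNA-seq, the spread rests on the pooled estimate of 4 groups.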
